A study of Mus musculus with 8 samples.

Results

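RGS proteins are the GTPase-activating proteins of heterotrimeric G proteins, and 10 genes of this control system were followed in mu-opioid receptor (MOR)-expressing neurons: Rgs2, Rgs4, Rgs7, Rgs8, Rgs9, Rgs10, Rgs16 and Rgs20, together with Gnb5 and Rgs7bp, whose products form complexes with some of them. The rule took genes by name and used no measured value, and all 10 were found among the 18939 genes of the count table. RNA was obtained by translating ribosome affinity purification (TRAP), in which EGFP-tagged ribosomes of the cells of interest are pulled down with antibodies to GFP and the RNA bound to them is sequenced. All mice were OPRM1cre X EGFP-L10a on a C57Bl/6J background, 8 to 12 weeks old at the start, in which Cre is made wherever Oprm1 is expressed and switches on the tagged ribosomal protein L10a from the Rosa26 locus. The morphine group drank morphine in 0.2% saccharin, raised to 0.5 mg/ml, for 11 days (4 libraries), and the control group drank 0.2% saccharin without morphine (4 libraries), so saccharin was common to both. By the study's methods, tissue of 2 mice of equal sex went into each library, which is uncertain for control replicate 5, labelled female but with Y-linked counts, and by the labels each group had 2 male (control replicates 1 and 2, morphine replicates 3 and 4) and 2 female libraries (control replicates 5 and 6, morphine replicates 7 and 8). The tissue was a gross dissection aimed at the paraventricular nucleus of the thalamus (PVT), so any MOR-expressing cell caught in it could add RNA.

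MOR signals through G proteins of the Gi/o class, which inhibit adenylyl cyclase and open G protein-gated potassium (GIRK) channels. An RGS protein binds the active alpha subunit and speeds up its hydrolysis of GTP, which shortens the signal. RGS proteins of the R4 class (Rgs2, Rgs4, Rgs8 and Rgs16 here) are small and many of them are made and degraded quickly, those of the R7 class (Rgs6, Rgs7, Rgs9 and Rgs11) are stable only when bound to the atypical beta subunit Gnb5, and Rgs7bp anchors R7 complexes at the membrane. Rgs10 belongs to the R12 class and Rgs20 to the RZ class, and Rgs9 is known above all for the long form made in the striatum, where it limits opioid and dopamine receptor signalling.

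Of the 10 genes, 6 lie on chromosome 1 of GRCm38.p6: Rgs2 (chr1:143999338-144004149), Rgs4 (chr1:169741477-169747642), Rgs7 (chr1:175059076-175492862), Rgs8 (chr1:153652959-153697669), Rgs16 (chr1:153740353-153745468) and Rgs20 (chr1:4909573-5070299). Rgs8 and Rgs16 are neighbours, 42.7 kb apart. The stretch of 250 bases before the start is shown for Rgs16, the member with the lowest P value for morphine, for its neighbour Rgs8, and for Rgs4, the member with the highest level per length. Each is printed 5′ to 3′ on the strand of its gene, from RefSeq on GRCm38.p6, and capitals mark the core of the cAMP response element (TGACG, or CGTCA when it lies on the other strand) and TATAAA.
Rgs16, chr1:153740103-153740352, plus strand: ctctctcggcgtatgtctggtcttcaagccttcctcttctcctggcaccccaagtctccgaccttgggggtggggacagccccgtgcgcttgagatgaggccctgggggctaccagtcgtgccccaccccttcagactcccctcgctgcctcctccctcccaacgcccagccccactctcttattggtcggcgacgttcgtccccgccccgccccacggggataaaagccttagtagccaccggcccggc
Rgs8, chr1:153652787-153653036, plus strand: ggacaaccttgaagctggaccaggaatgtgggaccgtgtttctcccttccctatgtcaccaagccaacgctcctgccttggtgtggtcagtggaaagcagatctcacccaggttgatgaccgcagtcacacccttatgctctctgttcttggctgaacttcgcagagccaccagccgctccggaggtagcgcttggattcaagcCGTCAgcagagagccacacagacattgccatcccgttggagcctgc
Rgs4, chr1:169747643-169747892, minus strand: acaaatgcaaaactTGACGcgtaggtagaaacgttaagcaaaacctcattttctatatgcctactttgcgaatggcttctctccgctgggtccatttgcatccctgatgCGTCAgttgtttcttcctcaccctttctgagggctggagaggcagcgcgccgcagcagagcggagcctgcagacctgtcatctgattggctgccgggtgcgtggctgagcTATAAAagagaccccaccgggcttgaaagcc
The window of Rgs16 held neither motif and had a GC content of 66.4%. The printed window of Rgs8, the first of its 3, held CGTCA 46 bases before the start, and its other windows held neither motif (the printed window precedes a start that lies inside the span given above, so its end overlaps that span), and that of Rgs4 held TGACG 236 bases, CGTCA 141 bases and TATAAA 31 bases before it. Windows were at hand for 9 of the 10 members (11 windows, since a gene can have several starts). The cAMP response element core was found in 4 of these 11 windows (Rgs2, Rgs4, Rgs7bp and Rgs8) and in 17.8% of all 32851 promoter windows of that length. The full element, TGACGTCA, which contains the core on both strands, was found in 0 of the 11 windows and in 1.55% of all windows. The E-box CACGTG, which reads the same on both strands, was found in 1 window (Rgs7; 6.02% of all windows), and TATAAA, searched on the strand of the gene, in 2 (Rgs4 and Rgs9; 7.59% of all windows). These are matches of letters and were not tested for binding or activity.

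Read counts per RefSeq transcript were used, with the transcript of the highest total standing for each gene, and are given as CPM (counts scaled to TMM-normalized library sizes, per 1e6). Libraries held 37081346 to 43311792 counts in the control group and 31151106 to 47582947 in the morphine group, and the members took 0.205% to 0.300% of them. Some libraries stood apart from the rest. Control replicate 5, labelled female, held 4 Y-linked genes at 28.7% to 35.8% of the mean of the male libraries, against at most 0.0988% in the other female libraries. Morphine replicates 4 and 7 had the highest summed levels of 8 markers of striatal projection neurons (1790 and 1468 CPM, against 227 to 776 CPM in the other 6 libraries). Markers of the thalamus and PVT were above 0 in every library (14 genes, summing to 2673 to 3562 CPM in control and 1945 to 3375 CPM in morphine libraries), with 12 of 14 below control, 4 of them at an unadjusted edgeR P under 0.05, and 0 called. Markers of 2 tissues outside the PVT had higher sums in most or all morphine libraries: those of the choroid plexus summed to 43.4 to 161 CPM in control and 218 to 680 CPM in morphine libraries, with 11 of 13 genes higher at an unadjusted edgeR P under 0.05 and 0 called, and those of telencephalic pyramidal neurons to 1452 to 2134 CPM and 2013 to 3874 CPM, with 10 of 13 higher and 1 lower (Cux2) at that level and 1 called (over all genes, 12.1% had an unadjusted P under 0.05 and 0.195% were called). In purified bulk RNA, fewer cells of a type and less RNA per cell cannot be told apart.

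The members covered a wide range of levels per length of transcript. In control libraries Rgs4 had the highest level, at 173 ± 28.9 CPM per kb (SD, n = 4), followed by the anchor Rgs7bp at 127 ± 26.1, the beta subunit Gnb5 at 82.5 ± 1.11 and Rgs16 at 71.8 ± 10.4 CPM per kb. Rgs7 stood at 62.1 ± 6.84, Rgs8 at 59.4 ± 8.15, Rgs10 at 40.5 ± 6.49 and Rgs2 at 24.5 ± 1.41 CPM per kb. The lowest levels were those of Rgs20, at 13.8 ± 0.521, and Rgs9, at 12.9 ± 3.34 CPM per kb, so that Rgs4 was 13.4 times as high as Rgs9. Of the 9 pairs of neighbours in this order, 5 had overlapping control libraries (Rgs4 and Rgs7bp, Gnb5 and Rgs16, Rgs16 and Rgs7, Rgs7 and Rgs8, Rgs20 and Rgs9) and 4 did not. Among 13 other RGS genes measured, the most abundant per length was Rgs17, an RZ member, at 55.2 ± 10.4 CPM per kb, between Rgs8 and Rgs10, followed by Rgs6 (R7 class, 25.8 ± 6.21) and Rgs19 (RZ class, 13.9 ± 0.870 CPM per kb).

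**Figure D1:**
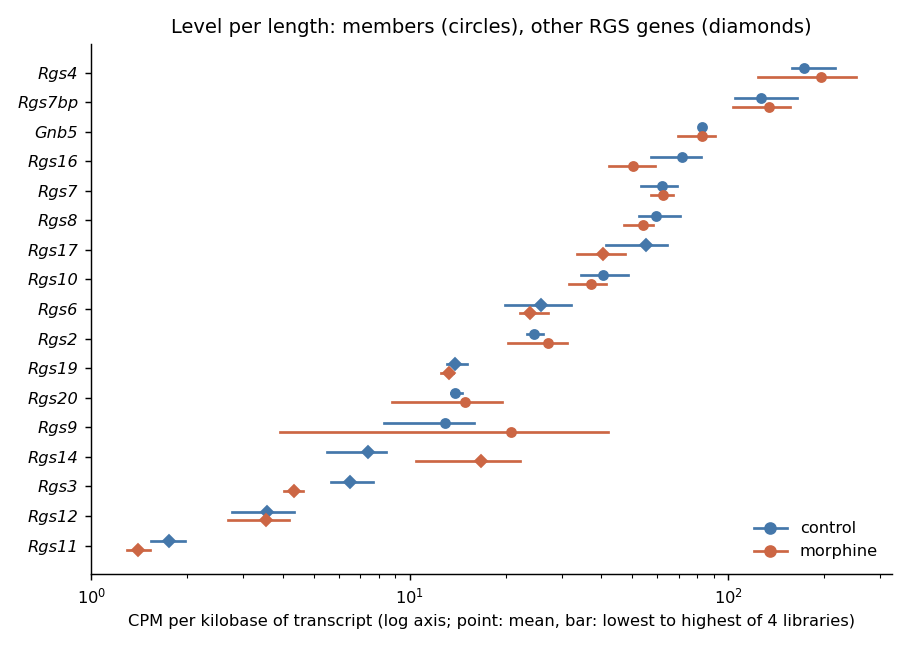
Level of each RGS gene in CPM per kb of transcript on a log axis, for members (circles) and other RGS genes (diamonds) with a level of 1 or more. Points are means and bars run from the lowest to the highest of the 4 control (blue) or 4 morphine (orange) libraries; Rgs4 is at the top of both groups and Rgs9 has the widest bar, from 3.91 to 42.0 CPM per kb in morphine libraries.

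The comparison of morphine with control libraries asks whether the RGS system of MOR-expressing neurons is altered after chronic morphine. By edgeR's quasi-likelihood test over all 18939 genes, 0 of the 10 members passed an adjusted P of 0.05, against 0.195% of all genes, and 1 member (Rgs16) had an unadjusted P under 0.05, against 12.1% of all genes. limma-voom called 0 members (0.121% of all genes) and DESeq2 called 1, Rgs16 (2.63% of all genes, 498 genes). The morphine mean was above control for 7 members and below for 3, with a median log2 fold change of 0.046 over the members and 0.0088 over all genes. Without regard to sign, the median log2 fold change was 0.13 for the members and 0.19 for all genes. The latter includes genes with low counts, since no filter was applied, so these medians are not matched for level. In 0 of the 10 members were all morphine libraries on the same side of all control libraries; of all genes, 3.21% were lower and 3.34% were higher in every morphine library than in every control library.

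**Figure D2:**
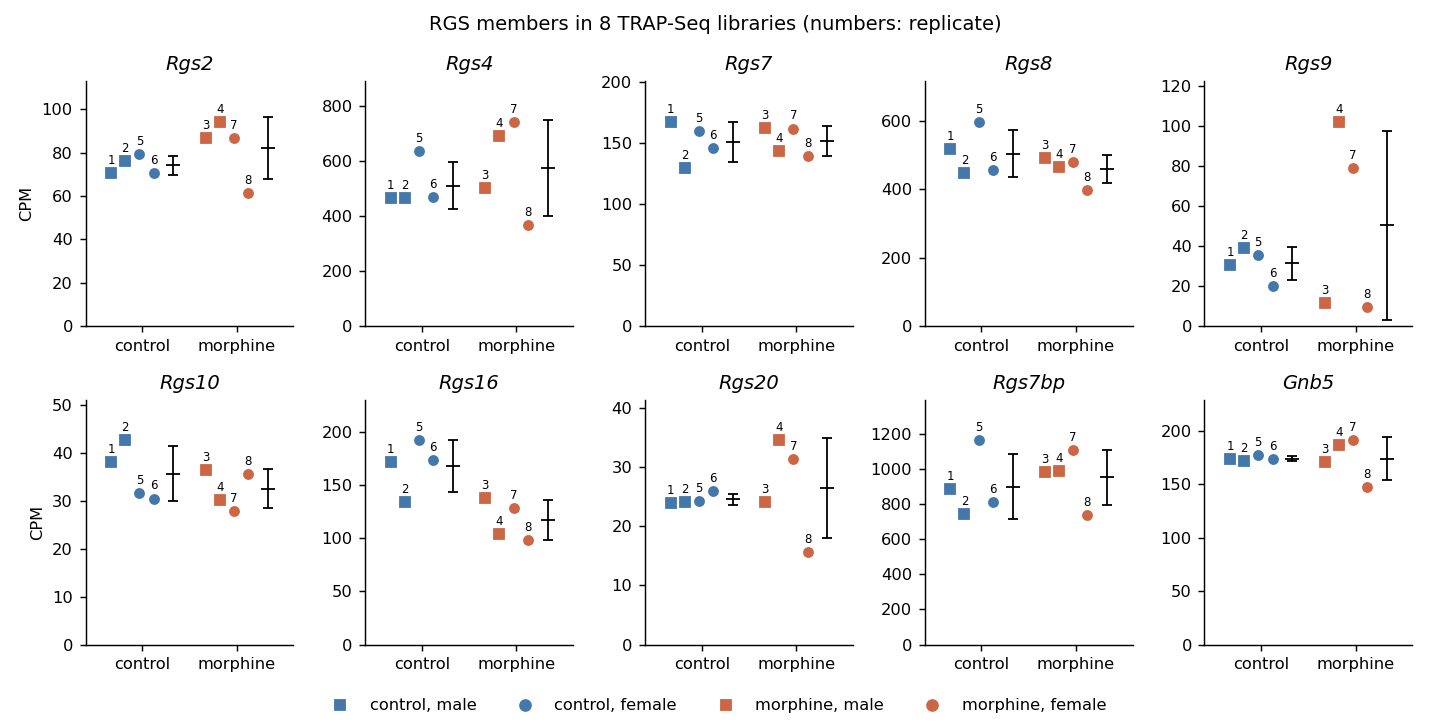
CPM of the 10 members in each library, with a linear axis from 0 in each panel. Squares are male and circles female libraries, the number beside a point is its replicate, and black bars are the mean ± SD of 4 libraries; the groups overlap in every panel, and in that of Rgs16 only control replicate 2 (134 CPM) lies below a morphine library (138 CPM).

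Rgs16, an R4 protein that acts on Gi/o and Gq alpha subunits, had the lowest P value among the members. Its levels in the control libraries were 172, 134, 192 and 173 CPM (replicates 1, 2, 5 and 6), and in the morphine libraries 138, 104, 128 and 98.8 CPM (replicates 3, 4, 7 and 8). Control replicates 1, 5 and 6 were above every morphine library, and the groups met only at control replicate 2 and morphine replicate 3, both male. The mean was 168 ± 24.4 CPM in control and 117 ± 18.8 CPM in morphine libraries (SD, n = 4). The log2 fold change was -0.52, with an SE of 0.14 and a 95% interval of -0.82 to -0.21 (fold 0.699, 0.567 to 0.862). The edgeR P value was 0.00307 and became 0.161 after adjustment over all genes, so Rgs16 was not called. DESeq2 gave it an adjusted P of 0.0354, and over the alternatives run the adjusted P ranged from 0.0354 to 1 and the log2 fold change from -0.61 to -0.29. Without control replicate 5 the log2 fold change was -0.46 (edgeR adjusted P = 0.268), and without morphine replicates 4 and 7 it was -0.53 (0.335). The level of Rgs16 across the 8 libraries varied with that of the marker lists: Pearson's r with the mean log2 CPM of the list was 0.80 for thalamus and PVT, -0.80 for choroid plexus, -0.75 for astrocytes and -0.70 for telencephalic pyramidal neurons. Adding the choroid plexus mean to the model gave Rgs16 a log2 fold change of -0.29 (SE 0.22, edgeR adjusted P = 1), and adding the telencephalic mean gave -0.43 (SE 0.23, edgeR adjusted P = 0.713). Choroid plexus and telencephalic markers were higher in most morphine libraries, while 0 of 7 astrocyte markers had an unadjusted P under 0.05, and the parts of tissue and treatment in the level of Rgs16 cannot be told apart.

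The other R4 members differed less between the groups. Rgs4, a short-lived RGS protein of cortex and thalamus, had 466, 467, 637 and 468 CPM in the control libraries and 501, 691, 742 and 366 CPM in the morphine libraries. The morphine libraries lay on both sides of the control libraries, with replicates 4 and 7 above all of them and replicate 8 below all of them. The means were 509 ± 85.0 and 575 ± 174 CPM (log2 fold change 0.17, 95% interval -0.27 to 0.62, edgeR adjusted P = 0.751). Rgs2, which acts mainly on Gq and is induced by cAMP and calcium signals in many cells, had 70.7, 76.0, 79.3 and 70.6 CPM in control and 86.9, 94.2, 86.7 and 61.3 CPM in morphine libraries. Here 3 of the 4 morphine libraries were above every control library and replicate 8 was below all of them. The log2 fold change of Rgs2 was 0.15 (95% interval -0.13 to 0.43, edgeR adjusted P = 0.677). Rgs8, the neighbour of Rgs16 on chromosome 1, ranged from 446 to 596 CPM in control and from 398 to 491 CPM in morphine libraries (504 ± 69.0 and 458 ± 41.6 CPM), with a log2 fold change of -0.14 (95% interval -0.40 to 0.12, edgeR adjusted P = 0.677). The intervals leave room for a change of Rgs4 of up to a fold of 1.54 and of Rgs2 of up to 1.35.

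Across the 8 libraries the log2 CPM of Rgs8 and Rgs16 had a Pearson's r of 0.76, a description that shares libraries, depth and the group difference. Rgs2 and Rgs4 had an r of 0.85 with each other and of -0.08 and 0.08 with Rgs16. Rgs8 also had an r of 0.53 with Rgs4 and 0.39 with Rgs2, and its r with Rgs7bp, on chromosome 13, was 0.77.

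**Figure D3:**
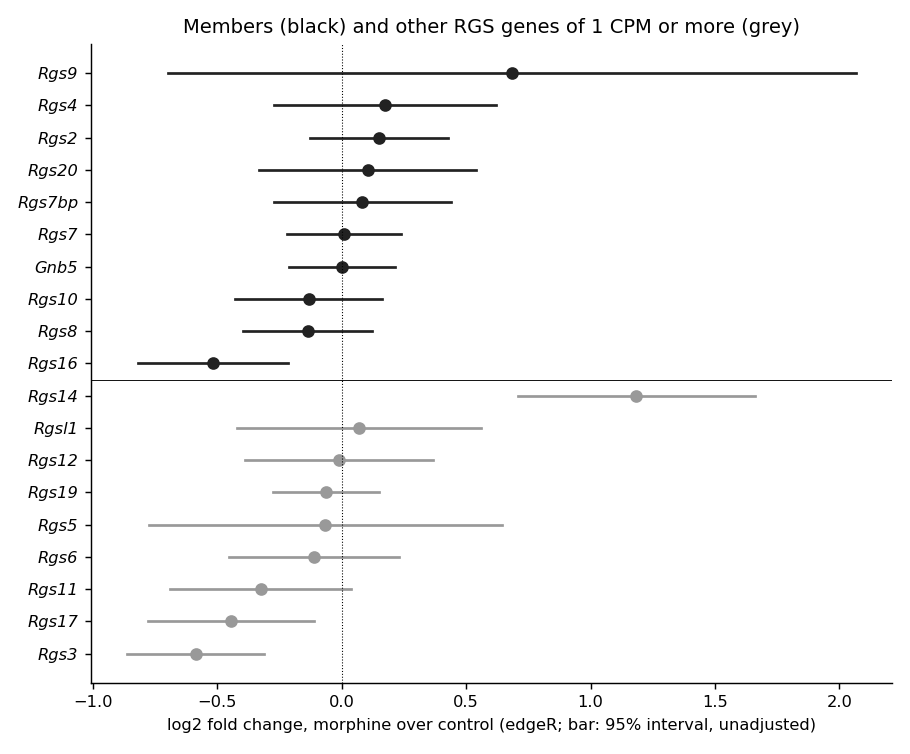
log2 fold change of morphine over control by edgeR for the members (black) and for the other RGS genes with a mean of 1 CPM or more (grey), with bars for 95% intervals not adjusted for multiple tests. The bar of Rgs16 (-0.82 to -0.21) is the only member's bar that stays clear of 0, and that of Rgs9 (-0.70 to 2.07) is the widest.

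Among the genes of the R7 complex, Rgs9 varied most between libraries, and the group means of Rgs7, Gnb5 and Rgs7bp differed by less than the SD within the groups. Rgs9 (chr11:109225348-109298181) had 30.7, 38.8, 35.7 and 20.2 CPM in the control libraries and 11.3, 102, 79.0 and 9.52 CPM in the morphine libraries. Morphine replicates 4 and 7 were above every control library, and morphine replicates 3 and 8 were below every control library, so that each side held a male and a female library. The means were 31.4 ± 8.14 and 50.5 ± 47.2 CPM, and the log2 fold change of 0.68 (SE 0.63) had a 95% interval of -0.70 to 2.07 (fold 0.616 to 4.19, edgeR adjusted P = 0.677). This interval holds 0 and changes in both directions. Rgs7 ranged from 130 to 168 CPM in control and from 139 to 163 CPM in morphine libraries, with a log2 fold change of 0.0078 (95% interval -0.22 to 0.24) that was -0.017 with upper-quartile factors. Gnb5 (chr9:75306288-75345923), the obligate partner, had 173, 171, 177 and 174 CPM in control and 171, 187, 191 and 147 CPM in morphine libraries. Relative to their mean, its control libraries were the closest together of any member, and its group means were 173.7 ± 2.33 and 173.8 ± 19.9 CPM (log2 fold change 0.00097, 95% interval -0.21 to 0.22, and -0.023 with upper-quartile factors). Gnb5 overlaps the protein-coding gene Myo5c, and since the counting is not stated to use strand, its level is uncertain to that extent. Rgs7bp (chr13:104945904-105054930) ranged from 743 to 1163 CPM in control and from 735 to 1106 CPM in morphine libraries, with a log2 fold change of 0.083 (95% interval -0.27 to 0.44). The edgeR adjusted P values of these 3 genes were 0.987 for Rgs7, 0.998 for Gnb5 and 0.870 for Rgs7bp.

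The RNA levels of the genes of the R7 complex were compared per length, which need not give the proportions of the proteins. The summed level of the 4 R7 genes (Rgs6, Rgs7, Rgs9 and Rgs11) was 1.24 ± 0.0933 times that of Gnb5 in control and 1.31 ± 0.0966 times in morphine libraries (SD, n = 4), and the anchor Rgs7bp was 1.23 ± 0.143 and 1.25 ± 0.145 times the R7 sum. Both ratios differed between the groups by less than the SD within them. Rgs7 was the largest part of the R7 sum, with 60.6% ± 4.17 in control and 58.7% ± 9.91 in morphine libraries. The share of Rgs9 was 12.2%, 17.3%, 12.9% and 8.28% in the control libraries and 4.83%, 33.5%, 26.5% and 4.35% in the morphine libraries. It thus spanned a wider range within the morphine group than between any control libraries.

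Rgs10 and Rgs20 represent the remaining classes. Rgs10 (chr7:128373621-128419506), a small R12 protein acting on Gi alpha subunits and known best from microglia, ranged from 30.5 to 42.6 CPM in control and from 27.9 to 36.4 CPM in morphine libraries (log2 fold change -0.13, 95% interval -0.43 to 0.16, edgeR adjusted P = 0.697). Microglia markers were low in all libraries, summing to 6.92 to 16.0 CPM in control and 7.70 to 15.4 CPM in morphine libraries over 8 genes. Rgs20, which acts on Gz and Gi alpha subunits, had 23.9, 24.1, 24.3 and 26.0 CPM in control and 24.1, 34.5, 31.5 and 15.7 CPM in morphine libraries. Rgs20 overlaps the predicted genes Gm16041 and Gm17101, so its level is uncertain to that extent. As with Rgs4, replicates 4 and 7 were above and replicate 8 below all control libraries. The means of Rgs20 were 24.6 ± 0.927 and 26.5 ± 8.41 CPM (log2 fold change 0.10, 95% interval -0.33 to 0.54, edgeR adjusted P = 0.867).

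Across the 8 libraries Rgs9, Rgs20, Gnb5, Rgs4 and Rgs2 were highest, or among the highest, in the libraries with the most striatal projection neuron markers. The summed level of 8 such markers was 461, 776, 666 and 383 CPM in the control libraries and 334, 1790, 1468 and 227 CPM in the morphine libraries. Among them Adora2a, the adenosine receptor of indirect-pathway neurons, ran from 0.288 CPM in morphine replicate 8 to 79.4 CPM in morphine replicate 4, and Ppp1r1b (DARPP-32) from 28.3 to 435 CPM in the same libraries, and no striatal marker was at 0 in any library. The list was not uniform: Tac1 was highest in control replicate 2 (35.9 CPM, against 24.1 and 17.0 CPM in morphine replicates 4 and 7), and Isl1 in morphine replicate 4 (10.3 CPM) was below control replicates 1, 2 and 6. The order of the 8 libraries by the mean log2 CPM of these markers was the same as their order by Rgs9 (Spearman's rho 1, Pearson's r 0.97). Pearson's r over the 8 libraries was 0.87 for Rgs20, 0.87 for Gnb5, 0.84 for Rgs4 and 0.76 for Rgs2, and it was 0.48 for Rgs7bp, 0.26 for Rgs8, -0.01 for Rgs7, -0.08 for Rgs16 and -0.33 for Rgs10. Rgs7, Rgs8, Rgs7bp, Rgs10 and Rgs16 had their strongest r with other lists. With astrocytes it was -0.89 for Rgs7 and -0.85 for Rgs8, and with microglia -0.90, -0.85 and -0.75 for Rgs7, Rgs8 and Rgs7bp. For Rgs7 it was -0.90 with endothelium and pericytes, and for Rgs10 -0.65 with telencephalic pyramidal neurons. For Rgs16 it was 0.80 with thalamus and PVT and -0.80 with choroid plexus. With oligodendrocytes it was -0.36, -0.25 and 0.12 for Rgs7, Rgs8 and Rgs7bp. The lists of microglia and of endothelium and pericytes were near the floor, with at least 5 and 4 of 8 genes below 1 CPM in every library. In the 6 libraries other than morphine replicates 4 and 7, r with the striatal mean was 0.91 for Rgs9, 0.75 for Gnb5, 0.69 for Rgs20, 0.61 for Rgs4 and 0.51 for Rgs2. In these 6 libraries r with the thalamus and PVT mean was higher than that with the striatal mean for Rgs20 (0.87) and Gnb5 (0.82), and r with the telencephalic mean was -0.90 for Rgs9. The points share libraries and depth, and the values are given as a description.

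**Figure D4:**
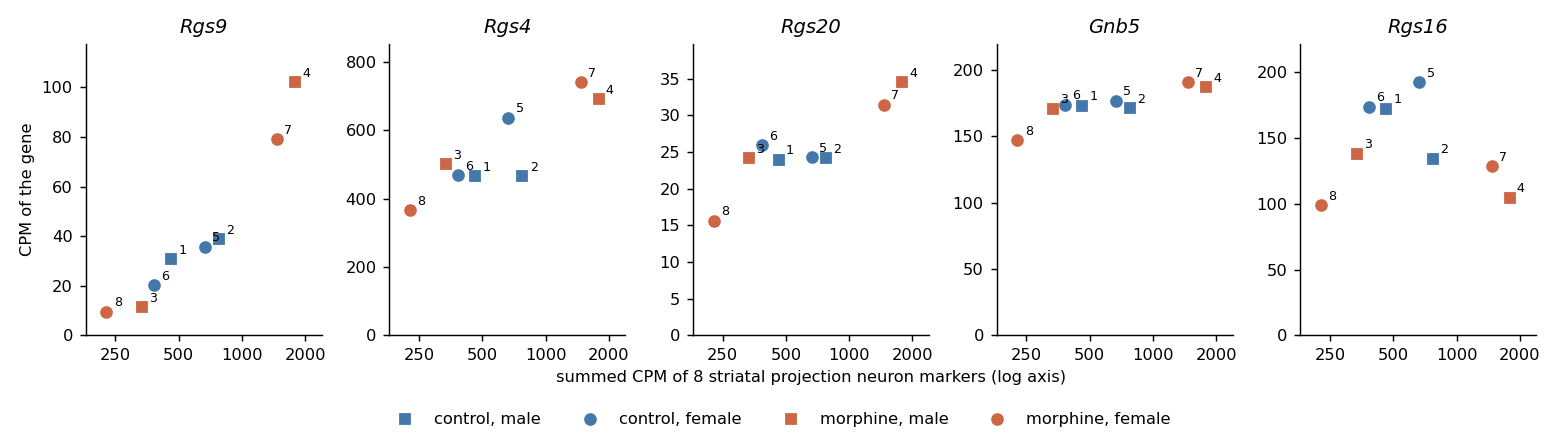
CPM of 5 members (linear axis) against the summed CPM of 8 striatal projection neuron markers (log axis) in the 8 libraries, labelled by replicate, with squares for male and circles for female libraries. Rgs9 rises from 9.52 CPM at the lowest marker sum (227 CPM) to 102 CPM at the highest (1790 CPM), while Rgs16 shows no such order.

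Adding the striatal marker mean to the model gave Rgs9 a log2 fold change for morphine of -0.10 in place of 0.68, and it gave 0.09 for Rgs4, 0.01 for Rgs20, -0.02 for Gnb5 and -0.51 for Rgs16. Without morphine replicates 4 and 7, which leaves the 2 morphine libraries lowest in Rgs9, its log2 fold change was -1.62, a value whose sign is set by which libraries were left out. Whether the level of Rgs9 in these libraries comes from striatal cells in the dissection was not tested.

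Rgs9 also differed between libraries in its transcripts. The table lists 2 of them, NM_011268, which encodes the long form of 675 residues known from striatum, and NM_001165934, which encodes the short form of 484 residues known from retina. They share 1470 nt, and each has a stretch of its own (964 nt of the long form, 843 nt of the short form at chr11:109235057-109235899), and reads in the shared stretch are counted on both. The long form had 1198, 1723, 1494 and 745 counts in the control libraries and 402, 3374, 2433 and 463 counts in the morphine libraries, and the short form 1115, 1420, 1350 and 803, and 539, 2496, 1843 and 625 counts. The ratio of long to short was 1.07, 1.21, 1.11 and 0.928 in control libraries and 0.746, 1.35, 1.32 and 0.741 in morphine libraries. The ratio was highest in morphine replicates 4 and 7 and lowest in morphine replicates 3 and 8, and over all 8 libraries it followed the order of the Rgs9 level itself. That level is the level of the long form, the numerator of the ratio, so part of this likeness is built in. The short form had a log2 fold change of 0.51 (SE 0.48, edgeR adjusted P = 0.677), close to that of the long form. The transcripts listed for Rgs7, Gnb5 and Rgs20 differed by at most 0.0801%, 0.148% and 1.71% of their counts in any library, so their isoforms could not be told apart.

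**Figure D5:**
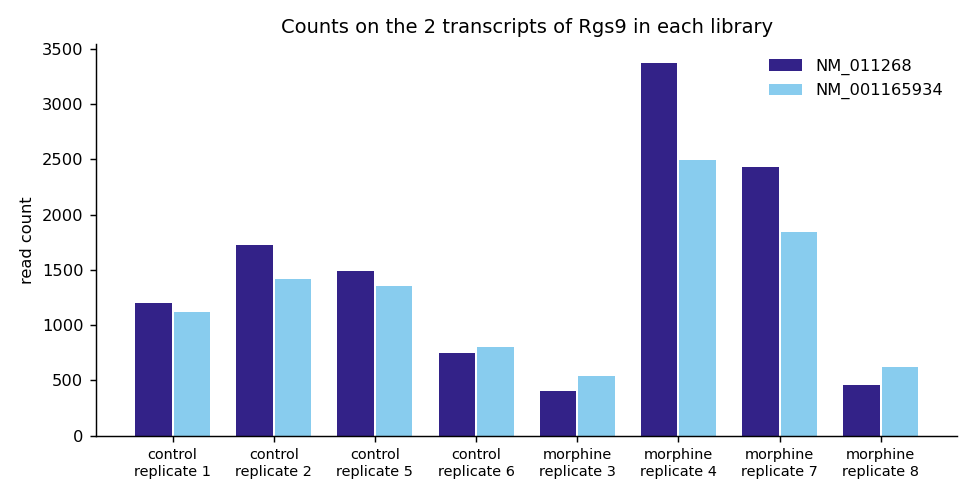
Read counts on the 2 Rgs9 transcripts in each library, with bars starting at 0, dark for NM_011268 (long form) and light for NM_001165934 (short form). The long form is ahead in morphine replicates 4 and 7 (3374 against 2496 and 2433 against 1843 counts) and behind in morphine replicates 3 and 8 and control replicate 6.

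Female libraries were set against male ones in a model that also held condition. By edgeR 0 of the 10 members were called (0.00528% of all genes, 1 gene), 0 had an unadjusted P under 0.05 (3.1% of all genes), and DESeq2 called 0 members (0.137% of all genes). The log2 difference of female minus male libraries lay between -0.34 (Rgs9, 36.1 CPM in female and 45.7 CPM in male libraries) and 0.09 (Rgs7bp, 953 and 900 CPM). The interaction of sex and condition was called for 0 members (0% of all genes), with 0 members at an unadjusted P under 0.05 in edgeR (1.72% of all genes) and 0 called by DESeq2 (0.0211% of all genes). Without morphine replicate 7, which leaves 1 female morphine library, 4 members (Rgs2, Rgs4, Rgs9 and Rgs20) had an unadjusted interaction P under 0.05, against 3.64% of all genes, and 0 were called. With 2 libraries per sex and group, the SE of the interaction ran from 0.23 for Gnb5 to 1.24 for Rgs9 on the log2 scale, which limits what could be detected. Control replicate 5 is counted as female here, as labelled.

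Of the 14 other RGS genes listed, 13 were measured, and 0 were called by edgeR, with 4 at an unadjusted P under 0.05 (2 higher and 2 lower in morphine libraries), against 12.1% of all genes, and 1 higher and 2 lower without overlap of the groups, against 3.34% and 3.21% of all genes. Rgs14, an R12 protein enriched in hippocampal CA2 neurons, had 19.8, 17.1, 12.9 and 19.8 CPM in control and 24.7, 45.5, 52.5 and 35.5 CPM in morphine libraries. Every morphine library was above every control library. The log2 fold change of Rgs14 was 1.18 (SE 0.22, edgeR adjusted P = 0.0569), and it was called by DESeq2 and by edgeR with sex in the model or without morphine replicate 3. Across the 8 libraries Rgs14 had a Pearson's r of 0.87 with the telencephalic marker mean. Rgs3, an R4 protein, had 29.7, 21.9, 22.2 and 27.3 CPM in control and 15.9, 17.9, 18.0 and 15.6 CPM in morphine libraries, again without overlap. The log2 fold change of Rgs3 was -0.59 (SE 0.13, edgeR adjusted P = 0.0895), it was called by DESeq2, and its r was 0.84 with the thalamus and PVT marker mean and -0.79 with that of choroid plexus. Rgs11, the least abundant R7 gene, did not overlap either (3.52 ± 0.451 and 2.81 ± 0.210 CPM, edgeR adjusted P = 0.476), but did so without normalization factors. Rgs17 had 452 ± 85.5 and 332 ± 48.5 CPM (log2 fold change -0.45, unadjusted P = 0.0132 and adjusted P = 0.267 by edgeR). Rgs13, the other gene with an unadjusted P under 0.05 (0.00432), held only 1 to 30 counts per library. Rgs6 (67.8 ± 16.3 and 62.8 ± 5.86 CPM) and Rgs19 (21.0 ± 1.31 and 20.1 ± 0.760 CPM) had log2 fold changes of -0.11 and -0.06 and did not pass the edgeR test.

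The partners of the members gave 0 calls by edgeR as well (0.195% of all genes). At an unadjusted P under 0.05 (12.1% of all genes) were 2 of 3 R7-binding proteins, 1 of 12 G protein subunit genes and 3 of 8 opioid receptor and GIRK channel genes. Of the 3 further R7-binding proteins, Gpr158, a receptor that recruits R7 proteins in neurons, had 119.9 ± 19.7 and 156.5 ± 24.8 CPM (log2 fold change 0.38, SE 0.14, edgeR adjusted P = 0.302), and Rgs9bp, the anchor of Rgs9 in photoreceptors, had 3.39 ± 0.932 and 1.95 ± 0.915 CPM. Of 12 G protein subunit genes, 4 were above and 8 below control, with a median log2 fold change of -0.03, and the gene counted above was Gnai2 (136 ± 15.9 and 116 ± 8.84 CPM). Of 8 opioid receptor and GIRK channel genes, Kcnj3, the GIRK1 subunit, had 54.6, 57.3, 59.8 and 61.6 CPM in control and 69.4, 77.0, 71.4 and 76.9 CPM in morphine libraries. The groups of Kcnj3 did not overlap, and its log2 fold change was 0.34 (SE 0.085, edgeR adjusted P = 0.143). Kcnj6, the GIRK2 subunit, had 27.7 ± 3.25 and 38.1 ± 6.58 CPM (log2 fold change 0.46, SE 0.14, edgeR adjusted P = 0.205). Oprm1, which encodes MOR and drives Cre in these mice, had 32.3, 29.4, 16.8 and 22.7 CPM in control and 15.9, 14.0, 17.6 and 18.4 CPM in morphine libraries. The means of Oprm1 were 25.3 ± 6.92 and 16.5 ± 1.95 CPM (log2 fold change -0.62, edgeR adjusted P = 0.207). Its male control libraries were above every morphine library, while the female libraries of the groups overlapped. The interaction of sex and condition for Oprm1 was 0.91 on the log2 scale (SE 0.27, edgeR unadjusted P = 0.00524) and was not called.

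The genes whose log2 CPM followed Rgs16 most closely over the 8 libraries were N4bp1 (Pearson's r 0.986), Map3k9 (0.979) and Agfg1 (0.978), among 13702 genes whose count reached 10 in all libraries, of which 162 had an r above 0.9 with Rgs16. Those closest to Rgs2, the member with the lowest P value among those above control, were Mei4 (0.957), Nexn (0.926) and Casq2 (0.919), and 7 genes had an r above 0.9 with it. These r values share libraries, depth and the group difference, and Rgs16 was the member with the lowest P value. The larger number for Rgs16 is therefore given only as a description. Among the members themselves, Rgs20 and Gnb5 had the highest r (0.97), followed by Rgs4 and Gnb5 (0.91).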

How the data were processed

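TRAP-Seq was carried out on 4 control and 4 morphine libraries, grouped by the labels. The authors deposited whole-number read counts per RefSeq transcript, not normalized, with mm10 as the build in the submitters' processing notes. The study's methods name Salmon, summed to genes by tximport, but this table does not look like that output: the tool that made it and its use of strand are not given in the sources used here. Reads shared by transcripts of a gene are counted on each, so the transcript of highest total stood for each gene (24488 transcripts, 18939 genes), although the test had been planned for counts per gene.

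All 18939 genes were tested with edgeR 4.0.16 in R 4.3.3 (glmQLFit and glmQLFTest, TMM factors, 2-sided) on condition, with no filter on low counts, and P values were adjusted over all of them by Benjamini-Hochberg. Genes with an adjusted P under 0.05 are called. Sex was tested beside condition, and their interaction in a further fit. CPM were computed from the deposited counts. Levels per length used GENCODE M21 transcripts matched by RefSeq identifier (all 10 members). A marker mean is the mean of log2 CPM (prior count 2) over a list. The fit was tested on simulated data. Each library is a separate pool of mice, and P values measure the spread between pools. PCR copies are not marked, so counts are not independent molecules.

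The members and gene lists were chosen with earlier results of these data known. Named are all members and, of the other lists except the marker lists, genes called, genes whose groups do not overlap in CPM and the 3 most abundant RGS genes per length, plus the 3 genes most correlated with the member of lowest P in each direction. Rgs13, Gpr158, Rgs9bp, Gnai2, Kcnj6, Oprm1 and the markers Adora2a, Ppp1r1b, Tac1, Isl1 and Cux2 were named after their values were seen. Alternatives were DESeq2 1.42.0, limma-voom (limma 3.58.1), RLE and upper-quartile factors, filters on low counts (filterByExpr, or 10 counts in all libraries), robust empirical Bayes, sums over transcripts, sex or a marker mean as a covariate, and each library left out. The striatal marker mean, DESeq2 with sex and leaving out morphine replicates 4 and 7 together were added after the data had been seen. Promoter windows came from RefSeq on GRCm38.p6. Figures were drawn with matplotlib 3.10.9.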

Additional observations from a re-analysis of the deposited data

Results flagged for a closer look

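In the control group, Rgs4 in replicate 5 was at 637 CPM, far from the other 3 control libraries, the nearest of which was at 468 CPM. Its gap to that library made up 0.987 of the range of the group, above Dixon's 95% critical value for 4 libraries. It was the only such library among 20 groups examined (10 members in control and in morphine libraries), and chance gives about 1 in 20. Control replicate 5 is also the library labelled female that holds Y-linked counts, and it had the highest level in the control group of Rgs2, Rgs7bp, Rgs8, Rgs16 and Gnb5. Without it the log2 fold change of Rgs4 for morphine was 0.29 in place of 0.17, within the range of 0.010 (without morphine replicate 7) to 0.34 (without morphine replicate 8) over all left-out libraries.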

How the results depend on the processing

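The number of members called was 0 by edgeR under every alternative run and 1 (Rgs16) by DESeq2, with 0 again by DESeq2 with sex in the model (Rgs16 adjusted P = 0.0501). For female against male libraries and for the interaction it was 0 under every alternative run. The number of other RGS genes called was 0, but 2 by DESeq2 with or without sex (Rgs3 and Rgs14), 1 by edgeR with sex in the model (Rgs14), and 0 to 1 when each library was left out. filterByExpr left 11 of these genes and the filter of 10 counts 9. The median log2 fold change of the members was 0.046, but 0.25 with the choroid plexus mean in the model and -0.18 without morphine replicates 4 and 7, and it ran from -0.030 to 0.13 with each library left out.

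The log2 fold change of Rgs16 was negative under every alternative run, and that of Rgs9 was the most variable. Rgs9 (0.68) was -0.049 by limma-voom, -0.29 with the telencephalic mean, -0.10 with the striatal mean and -1.62 without morphine replicates 4 and 7 (edgeR unadjusted P = 4.4e-05, adjusted P = 0.0686), and it ran from 0.079 (without morphine replicate 4) to 1.03 (without morphine replicate 8). Several values near 0 turned negative: Gnb5 was -0.0067 by limma-voom, -0.023 with upper-quartile factors, -0.015 with filterByExpr, -0.044 with the telencephalic and -0.016 with the striatal mean, and Rgs7 was -0.017 with upper-quartile factors and -0.010 with filterByExpr. With the telencephalic mean Rgs8 was 0.018, Rgs10 0.21 and Rgs20 -0.15, and with the choroid plexus mean Rgs8 was 0.11, Rgs9 1.32, Rgs4 0.45, Rgs7bp 0.40, Rgs2 0.32, Rgs20 0.26, Rgs7 0.24, Gnb5 0.10, Rgs10 -0.049 and Rgs16 -0.29. Without morphine replicates 4 and 7, Rgs2 was -0.023, Rgs4 -0.26, Rgs7 -0.025, Rgs20 -0.33, Rgs7bp -0.092 and Gnb5 -0.15. With each library left out, Gnb5 ran from -0.065 to 0.073, Rgs7 from -0.058 to 0.048, Rgs20 from -0.052 to 0.29, Rgs7bp from -0.015 to 0.22, Rgs2 from 0.079 (without morphine replicate 4) to 0.27, Rgs4 from 0.010 (without morphine replicate 7) to 0.34, Rgs8 from -0.20 (without control replicate 6) to -0.060 (without control replicate 5) and Rgs10 from -0.22 (without control replicate 6) to -0.037 (without control replicate 2). Rgs2 reached an unadjusted edgeR P under 0.05 without morphine replicate 8 (adjusted P = 0.445), and Rgs10 did so for female against male libraries without morphine replicate 4 or 8. The cause of these changes was not tested.

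No paired analysis was possible because the groups share no replicate numbers. Members held 402 counts or more in every library, and for Gnb5 and Rgs20 in the control group counting error is close to the spread between pools. The median log2 fold change of all genes was 0.0088 with TMM, 0.0115 with RLE and -0.0148 with upper-quartile factors.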
